A study of Saccharomyces cerevisiae with 28 samples.

Results

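Yeast cells labelled as depleted of eIF4G were compared with wild-type (WT) cells after 8 h at 36 °C in synthetic complete (SC) medium. The comparison took every SC library whose title gives 8 h, which was 8 of the 28 libraries of the series. The libraries were taken by title, but the comparison was chosen with earlier results of these data known. They came from 4 samples, called cultures here, 2 of strain YWG1246 (YAJ41), titled 4Gts, and 2 of strain YWG1245 (YAJ3), titled WT. Each culture gave a library of ribosome-protected fragments (footprints) and a library of fragmented total RNA depleted of rRNA (mRNA). All 4 cultures grew in SC with 2% raffinose, received 2% galactose for 30 min, were held at 36 °C for 8 h, and were treated with cycloheximide at 0.1 mg/ml just before harvest. The labels name no allele, promoter or marker of either strain, no protein was measured, and the labels leave unsaid whether replicates, or samples of different times, came from separate cultures. The p-values below therefore measure no more than how these samples spread, and that spread may be technical.

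eIF4G is the scaffold of eIF4F, the complex that binds the capped end of an mRNA. It joins the cap-binding protein eIF4E, the RNA helicase eIF4A and the poly(A)-binding protein, and helps to bring the small ribosomal subunit to the message. Yeast has a pair of eIF4G genes, TIF4631 and TIF4632. The question put to the ribosome profiles is which mRNAs lose or keep ribosomes when eIF4G is scarce. The ratio of footprints to mRNA of a gene, its translational efficiency (TE), is the usual measure of that.

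The deposited values were RPKM, which are reads scaled to gene length and to library size. Levels are given below either as RPKM or as scaled log2(RPKM + 1), and every difference is 4Gts minus WT on that log2 scale, with TE as the footprint value minus the mRNA value of a culture. Relative units of this kind remove any change shared by all genes, so a global fall of translation cannot be seen here. The 4 footprint libraries at 8 h held about 7050000 to 11100000 reads and the 4 mRNA libraries 11600000 to 18100000 reads, as recovered from the steps between low RPKM values. Over low genes 81.7% to 86.3% of the values came out as whole reads, within 0.05 reads. A gene of 1 kb at 10 RPKM then carried a counting error of 9.5% to 11.9% in footprints and 7.44% to 9.29% in mRNA, which covers counting only. The cultures of replicate number 1 and number 2 differed from each other within each strain in many genes, and the strain difference is given within each number wherever that matters. Markers of a cells were measured in all 4 cultures, at a summed mRNA level of 9390 and 1160 RPKM in the 4Gts cultures and 4970 and 1360 RPKM in WT, so replicate number 1 was the higher in both strains. In bulk cultures fewer cells of a type and less RNA per cell cannot be told apart. The 4 alpha-cell markers summed to 48.1 and 66.3 RPKM in 4Gts and 70.3 and 161 RPKM in WT, and 8 of 12 meiosis genes stayed under 10 RPKM in all 4 cultures.

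The gene that marked the strains was TIF4632, which encodes eIF4G2. Its mRNA stood at 0.271 and 0.211 RPKM in the 4Gts cultures and at 20.1 and 29.3 RPKM in WT. Its footprints stood at 0.756 and 0.62 RPKM in 4Gts and at 55.5 and 43 RPKM in WT. The groups lay far apart in both measures, with 7 to 16 reads per 4Gts library against 634 to 1673 reads per WT library. TIF4632 fell by 4.34 in mRNA (SE 0.23, adjusted p = 0.002) and by 4.92 in footprints (SE 0.28, adjusted p = 0.00702; limma with Benjamini-Hochberg adjustment over 4689 genes). These sizes depend on the pseudocount, since the 4Gts values are under 1 RPKM: the mRNA difference of TIF4632 was -6.15 with a pseudocount of 0.1 RPKM and -2.48 with 5 RPKM. The mRNA call held in all 8 fits that left out 1 SC culture. The footprint call did not survive the loss of either 4Gts culture at 8 h, with a lowest adjusted p over all genes of 0.132 without replicate 1 and 0.148 without replicate 2. Nor did it survive the loss of the first WT culture at 8 h (0.0822).

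The mRNA of TIF4631, which encodes eIF4G1, was at 210 and 405 RPKM in the 4Gts cultures and at 76.9 and 57.9 RPKM in WT. Both 4Gts cultures were above both WT cultures. The difference was 2.13 (SE 0.42, limma adjusted p = 0.307), with 1.33 in replicate number 1 and 2.92 in number 2. Its footprints were at 110 and 413 RPKM in 4Gts and at 88.5 and 57.1 RPKM in WT, a difference of 1.56 that was 0.22 in number 1 and 2.89 in number 2. Both 4Gts cultures were above both WT cultures in TIF4631 footprints too, and the protein was not measured. UBR1, the ubiquitin ligase of the N-degron pathway, had mRNA at 355 and 111 RPKM in 4Gts and 523 and 1110 RPKM in WT, a difference of -1.92 (adjusted p = 0.506). URA3, an enzyme of uracil synthesis often used as a selection marker, had mRNA at 125 and 140 RPKM in 4Gts and 26 and 24.6 RPKM in WT, a difference of 2.36 (adjusted p = 0.307). The groups did not overlap for either gene.

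None of the partners of eIF4G in cap binding passed the test in the fit of 1 mean per group. TIF1 and TIF2, which encode the same eIF4A protein and may share reads, had mRNA differences of 0.90 and 0.89 and TE differences of -0.17 and -0.23. The poly(A)-binding protein gene PAB1 had a TE difference of -0.44 and DED1, which encodes a helicase of scanning, -0.62 (limma adjusted p = 0.476 and 0.377). The TE of DED1 was lower in both 4Gts cultures (-1.14 and -0.89) than in both WT cultures (-0.46 and -0.34). Over the 13 genes of eIF4F, its partners and the eIF4E-binding proteins, the median TE difference was -0.10 beside 0.01 over all genes. In TE 10 of the 13 were below 0, 7 of them in both replicate numbers. In 6 of the 13 both 4Gts TE values were below both WT values, beside 21.5% of all genes tested. The median mRNA difference of the 13 was 0.61. The mRNA median was 0.28 without 4Gts replicate 1 or without WT replicate 2, and 0.93 without 4Gts replicate 2.

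**Figure D1:**
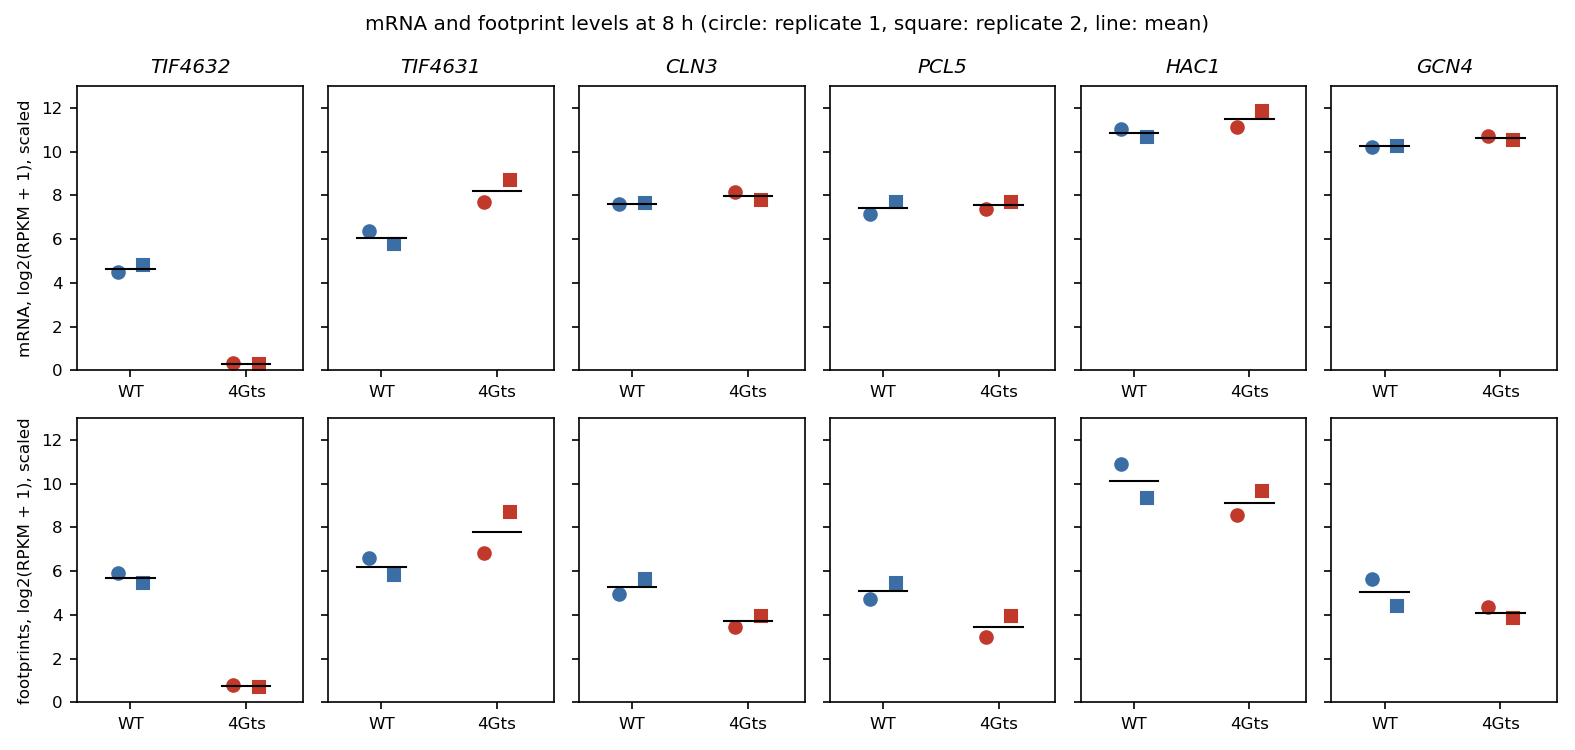
Scaled log2(RPKM + 1) of mRNA (top) and footprints (bottom) of 6 genes in the 2 WT and 2 4Gts cultures at 8 h, circles for replicate 1, squares for replicate 2 and a line at each mean. TIF4632 is near 0 in 4Gts in both rows, while CLN3 and PCL5 are lower in footprints in both 4Gts cultures and differ less in mRNA.

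Across all 4689 genes tested, and in the fit of 1 mean per group, TIF4632 was the only call at an adjusted p under 0.05 in either mRNA or footprints, in both cases 0.0213% of the genes. No gene passed as higher in mRNA or footprints (0%), and in TE no gene passed in either direction (0%). At an unadjusted p under 0.05 there were 470 genes in mRNA, 547 in footprints and 537 in TE, and the lowest adjusted p in TE was 0.198 (limma). The median standard error of a difference was 0.32 in mRNA, 0.33 in footprints and 0.22 in TE, while the differences themselves had SDs of 0.57, 0.61 and 0.35 over genes. Across genes, the strain difference in replicate number 1 correlated with that in number 2 at r = 0.552 in mRNA, 0.554 in footprints and 0.398 in TE. Genes are not independent replicates, and no p is given. The sign was the same in both numbers for 66.9% of genes in mRNA, 67.3% in footprints and 62.7% in TE. The calls depended on how the replicate number was treated. With the number as a block, 387 of the 4689 genes passed in mRNA, 853 in footprints and 3 in TE, CLN3 among the 3. The labels do not say what a number shares, so the fit of 1 mean per group is used here unless a block is named.

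**Figure D2:**
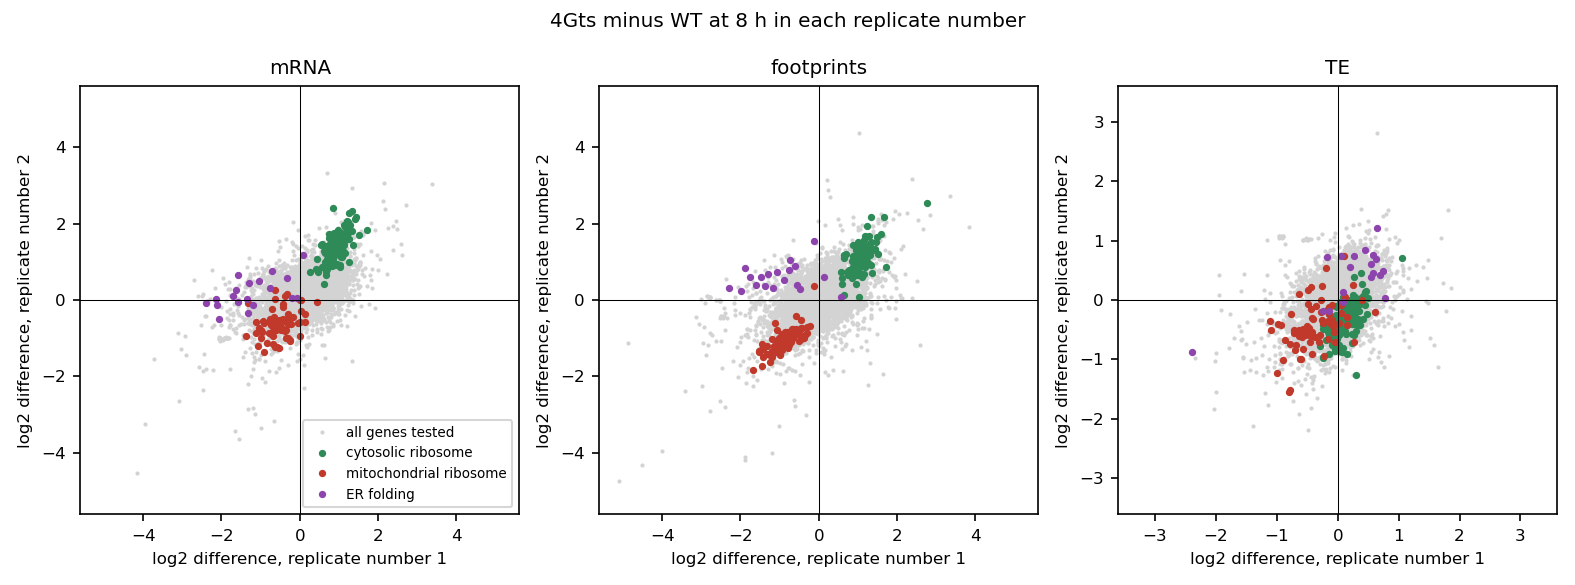
Strain difference of each gene (log2, 4Gts minus WT, 8 h) in replicate number 1 (x axis) against number 2 (y axis) for mRNA, footprints and TE, with 3 gene groups coloured over all 4689 genes in grey. Cytosolic ribosomal genes lie up and to the right in mRNA and footprints and mitochondrial ribosomal genes down and to the left, whereas in mRNA and footprints ER folding genes are low in number 1 only.

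Among genes with a symbol whose groups did not overlap, the lowest TE differences were those of CLN3, PCL5 and HAC1, which encode regulators. CLN3 encodes a G1 cyclin, and its leader carries an upstream reading frame. CLN3 footprints were at 9.98 and 14 RPKM in the 4Gts cultures and 27.8 and 49.2 RPKM in WT, and both 4Gts values were below both WT values. Its mRNA was at 282 and 218 RPKM in 4Gts and 179 and 219 RPKM in WT, a difference of 0.34. After scaling, both 4Gts mRNA values were above both WT values. The TE of CLN3 was -4.67 and -3.87 in 4Gts and -2.64 and -2.04 in WT, so the difference was -1.93 (SE 0.32, limma adjusted p = 0.198), with -2.03 in replicate number 1 and -1.83 in number 2. The 4Gts footprint values rested on 121 and 228 reads.

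PCL5 encodes a cyclin of the Pho85 kinase that marks Gcn4 for destruction. Its footprints were at 6.81 and 13.9 RPKM in 4Gts (32 and 88 reads) and 24.1 and 43.6 RPKM in WT, whereas its mRNA, at 167 and 204 RPKM in 4Gts and 133 and 220 RPKM in WT, overlapped between the strains. The TE difference was -1.77 (SE 0.30, limma adjusted p = 0.198), and it was -1.99 and -1.55 in the numbers 1 and 2. GCN4 encodes the activator of amino acid synthesis, and upstream frames set its translation. It had a TE of -6.35 and -6.68 in 4Gts and -4.56 and -5.88 in WT. The GCN4 difference of -1.30 (SE 0.64, adjusted p = 0.497) came with a wide gap between the WT cultures, and the 4Gts footprints rested on 111 and 102 reads.

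HAC1 encodes the factor that switches on the unfolded protein response, and its unspliced mRNA is known to be held back from translation. HAC1 mRNA was at 2280 and 3660 RPKM in 4Gts and 1990 and 1780 RPKM in WT. HAC1 footprints were at 380 and 800 RPKM in 4Gts and 1760 and 669 RPKM in WT, so these groups overlapped. Its TE was -2.56 and -2.19 in 4Gts and -0.18 and -1.32 in WT, a difference of -1.63 (SE 0.57, limma adjusted p = 0.384) that was -2.39 in number 1 and -0.87 in number 2. The frame YFL032W, which overlaps HAC1 and may share its reads, gave -1.66.

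Over the 14 tested genes with upstream frames of reported effect, 12 had a TE difference below 0, 9 of them in both replicate numbers. In 8 of the 14 both 4Gts values were below both WT values, beside 21.5% of all genes tested. The median TE difference was -0.37, with -0.53 in number 1 and -0.29 in number 2, and the median mRNA difference was 0.05. The TE median ran from -0.39 to -0.10 over the alternatives that kept all cultures at 8 h, and was -0.22 with quantile normalization. Leaving out 1 culture moved it between -0.50 and -0.26. This list was chosen with earlier results of these data known, and CLN3 and GCN4 are among its members. CPA1, a subunit of carbamoyl phosphate synthetase whose leader encodes an arginine attenuator peptide, had a TE difference of -0.85 (-0.79 and -0.91 in the numbers 1 and 2). SCO1, a copper chaperone of cytochrome oxidase, differed by -1.37 in mRNA and -1.83 in footprints, with no overlap in either (limma adjusted p = 0.29 and 0.163).

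UTH1, a protein of the cell wall and mitochondria, had a TE difference of -1.76 (adjusted p = 0.569), between PCL5 and HAC1. Its groups overlapped, at -4.69 and -7.30 in 4Gts and -3.30 and -5.17 in WT, and it was singled out after its values were seen. Other TE values at the low end came from ADH5, an alcohol dehydrogenase, at -1.52, from VID24, a factor of enzyme degradation on return to glucose, at -1.45, and from CTS1, the chitinase of cell separation, at -1.39. The 4Gts footprints of ADH5 rested on 20 and 144 reads and those of CTS1 on 346 and 12 reads. At the high end stood ERG29, a gene of the sterol pathway, at 1.17, AIP5, a regulator of actin assembly, at 1.12, BUD21, a component of the small-subunit processome, at 1.08, and COB, cytochrome b, which is encoded and translated inside mitochondria, at 1.08. GPI14, a mannosyltransferase of GPI anchor synthesis, was the most even of these. Its mRNA was at 35 and 36 RPKM in 4Gts and 36 and 38.2 RPKM in WT, and its footprints at 11.7 and 12.9 RPKM in 4Gts and 5.62 and 5.89 RPKM in WT. The TE difference of GPI14 was 1.003 in number 1 and 1.007 in number 2 (SE 0.22 for the mean of 1.005, limma adjusted p = 0.359). OM45, an outer membrane protein of mitochondria, reached 1.003 and SUP35, the release factor eRF3, 0.60. Among frames with no gene symbol, YBR191W-A was at 1.72 and YMR175W-A at 1.67 at the high end, and YEL045C was at -1.46 at the low end. YMR175W-A had 29 and 100 footprint reads in 4Gts and 16 and 84 in WT. Its mRNA had 22 and 48 reads in 4Gts and 23 and 238 in WT. Read numbers were not recovered for YBR191W-A and YEL045C.

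Genes for the mitochondrial ribosome were lower by value in the 4Gts cultures in mRNA and, by a wider margin, in footprints. This ribosome translates the few proteins encoded in mitochondrial DNA, and nearly all of its proteins are made in the cytosol and imported. Of 77 genes tested, 76 had a footprint difference below 0, each of them in both replicate numbers, and in all 76 both 4Gts values were below both WT values, beside 17.9% of all genes tested. None passed the test for single genes in the fit of 1 mean per group. With the replicate number as a block, 68 of the 77 passed as lower in footprints, beside 375 of all 4689 genes. In that fit 14 of the 77 passed as lower in mRNA, beside 115 of all 4689, and none of them passed in TE. The list median of the footprint level was 6.15 and 6.09 in the 4Gts cultures and 7.14 and 7.20 in WT, while the median over all genes lay between 5.78 and 5.83 in the 4 cultures. The median footprint difference was -0.97 (-0.93 in number 1 and -1.02 in number 2), beside 0.03 over all genes.

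Both mRNA and TE of the mitochondrial ribosomal genes were below WT. In mRNA, 74 of the 77 genes were below 0, 64 of them with no overlap, beside 19.6% of all genes tested, and the median was -0.59 (-0.51 and -0.60 in the numbers 1 and 2). In TE, 71 were below 0 and 56 did not overlap, beside 21.5% of all genes tested, with a median of -0.40 (-0.42 and -0.44). Leaving out any 1 culture kept the footprint median between -1.08 and -0.89 and the TE median between -0.45 and -0.39.

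MRPS5, of the small mitochondrial subunit, had footprint levels of 5.29 and 5.07 in 4Gts and 6.97 and 6.90 in WT. The strains were well apart and the replicates close, and the difference was -1.76 (SE 0.20, limma adjusted p = 0.107). MRPS9, of the same subunit, differed by -1.59 in footprints (adjusted p = 0.174). RSM7, also of the small subunit, was at 59.7 and 63 RPKM in footprints in 4Gts and 152 and 160 RPKM in WT, and its mRNA, at 108 and 144 RPKM in 4Gts and 156 and 131 RPKM in WT, overlapped. The TE difference of RSM7 was -1.17 (adjusted p = 0.216), and that of IMG1, of the large subunit, -1.15 (adjusted p = 0.377). In mRNA, MRP2 and MRPL50, of the small and the large subunit, differed by -1.16 and -1.13 (adjusted p = 0.358 and 0.307).

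Genes of mitochondrial protein import were also lower by value in footprints. Of 37 genes of protein import, 31 were below 0 in footprints, all 31 in both replicate numbers, with a median of -0.65, and 26 were below 0 in TE, with a median of -0.19 (-0.30 without WT replicate 1). TIM23, the channel of the inner membrane, had footprints at 85.5 and 85.7 RPKM in 4Gts and 180 and 126 RPKM in WT, while its mRNA was at 155 and 126 RPKM in 4Gts and 137 and 81 RPKM in WT. Its TE difference was -1.25 (SE 0.20, limma adjusted p = 0.198), with -1.22 in number 1 and -1.27 in number 2. The matrix chaperones SSC1 and HSP60 differed by -1.85 and -1.55 in footprints and by -1.04 and -1.22 in mRNA.

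Of 21 genes of mitochondrial translation and tRNA modification, all 21 were below 0 in footprints, 18 of them in both numbers, with a median of -0.60. MTO1, which modifies the wobble base of mitochondrial tRNAs, had footprints at 8.5 and 5.52 RPKM in 4Gts and 27.3 and 18.1 RPKM in WT, and mRNA at 38.3 and 25.1 RPKM in 4Gts and 51.2 and 34.5 RPKM in WT. The TE difference of MTO1 was -1.17 (SE 0.20, limma adjusted p = 0.198), with -1.15 and -1.19 in the numbers 1 and 2. CBP6, needed for making cytochrome b, differed by -1.64 in footprints, and MEF1, the mitochondrial elongation factor G, by -0.86 in mRNA. The respiratory chain gave no common direction: the median footprint difference of its 36 nuclear and mitochondrial genes was -0.08, at 0.32 in number 1 and -0.45 in number 2. Within it NDE1, an external NADH dehydrogenase, was higher by value in footprints, at 1.24 (adjusted p = 0.163), and ATP1, the alpha subunit of ATP synthase, lower, at -0.74 (adjusted p = 0.282).

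**Figure D3:**
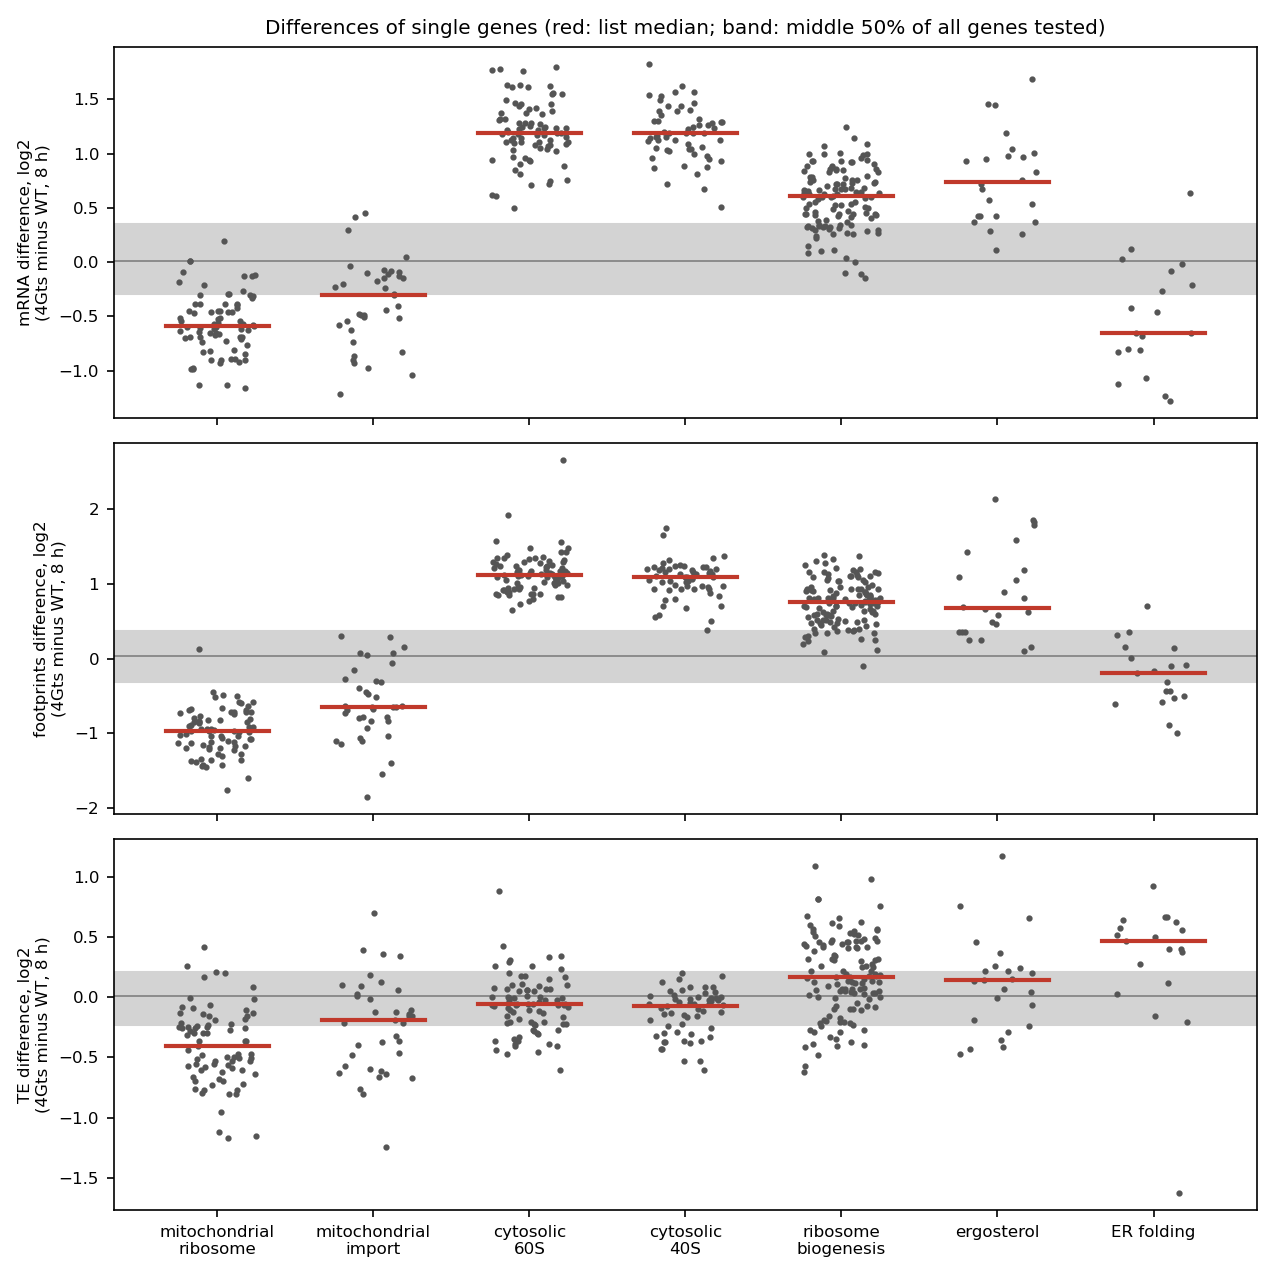
Differences of single genes (log2, 4Gts minus WT, 8 h) in mRNA, footprints and TE for 7 gene lists, each point a gene, red lines the list medians, the grey band the middle 50% of all 4689 genes and the grey line their median. The mitochondrial ribosome lies below the band most clearly in footprints (median -0.97) and the cytosolic subunits above it in mRNA and footprints (1.19 and 1.12 for the large subunit), but not in TE.

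Genes for the cytosolic ribosome were at higher relative levels in the 4Gts cultures. All 81 genes tested of the large subunit and all 57 of the small subunit had differences above 0 in mRNA and in footprints, in both replicate numbers. None passed the test for single genes in the fit of 1 mean per group. With the replicate number as a block, 78 of 81 and 52 of 57 passed as higher in footprints, beside 478 of all 4689 genes. In mRNA 57 of 81 and 38 of 57 passed as higher in that fit, beside 272 of all 4689. The median mRNA difference was 1.19 for both subunits, with 0.95 and 1.43 in the numbers 1 and 2 for the large subunit and 0.93 and 1.44 for the small. In mRNA 64 of 81 and 47 of 57 genes did not overlap between the strains, beside 18.7% of all genes tested. The median footprint difference was 1.12 and 1.09, and there 31 of 81 and 13 of 57 did not overlap, beside 17.1% of all genes tested.

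The level of these genes also differed by replicate number within a strain. The median mRNA level of the large subunit was 10.27 and 9.34 in the 4Gts cultures and 9.29 and 7.98 in WT, so number 2 was lower than number 1 in both strains and 4Gts number 2 was close to WT number 1. The mRNA median of the large subunit was 0.58 without WT replicate 2, 1.84 without WT replicate 1 and 0.81 without 4Gts replicate 1. The footprint median was 0.50 without WT replicate 2, 0.54 without 4Gts replicate 1, 1.74 without WT replicate 1 and 1.72 without 4Gts replicate 2. The medians of the small subunit moved alike, over 0.56 to 1.86 in mRNA and 0.44 to 1.75 in footprints. Footprints and mRNA of these genes moved about alike, and the TE medians of -0.06 and -0.08 were 0.16 and 0.11 in number 1 and -0.28 and -0.31 in number 2. Under each scaling both stayed below 0, and they were 0.07 and 0.05 when genes under a mean of 50 RPKM were left out. Many of these genes exist as near-identical pairs that may share reads.

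Within the large subunit RPL22B stood out, with footprint levels of 9.65 and 8.57 in 4Gts and 6.88 and 6.02 in WT. Its mRNA difference was 1.78 and its footprint difference 2.66 (limma adjusted p = 0.454 and 0.204), and its TE difference of 0.88 (adjusted p = 0.377) was the highest of the list. RPL5, which binds the 5S rRNA, differed by 1.80 in mRNA, and RPS12, of the small subunit, by 1.83. RPP0, the base of the ribosomal stalk, had a TE difference of -0.61 that was -0.25 in number 1 and -0.97 in number 2. RPS27B, of the small subunit, was at -0.61 in TE as well.

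Assembly factors and the polymerases that make rRNA and tRNA went the same way by value. Of 125 genes of ribosome biogenesis, 124 were above 0 in footprints, 112 of them in both replicate numbers, with a median of 0.76 (1.02 and 0.54 in the numbers 1 and 2). Their TE median was 0.16, or 0.25 without 4Gts replicate 1 and 0.11 without 4Gts replicate 2, and 56 of the 125 had TE values in 4Gts above both WT values with no overlap, beside 21.8% of all genes tested. NSR1 and NOP56, nucleolar proteins of pre-rRNA processing, differed by 1.39 and 1.37 in footprints, and NOC4, of the small-subunit processome, by 1.25 in mRNA. The mRNA median of the biogenesis genes was 0.61, and it was 0.03 without 4Gts replicate 1, 0.33 without WT replicate 2 and 1.17 without 4Gts replicate 2. Their footprint median was 0.28 without 4Gts replicate 1 and 1.26 without 4Gts replicate 2. BUD21 and RIO1, a kinase of small-subunit maturation, had TE differences of 1.08 and 0.98. The median footprint difference was 0.57 over 19 subunits of RNA polymerase I and III, and it was 0.24 without 4Gts replicate 1, 0.99 without 4Gts replicate 2 and 0.90 without WT replicate 1. RPA135, the second largest subunit of polymerase I, differed by 1.21 in footprints and RPA14 by 1.24 in mRNA but by -0.87 in TE.

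Other parts of the translation apparatus were higher by value in mRNA. The median mRNA difference was 0.51 over 20 aminoacyl-tRNA synthetases, all 20 above 0, with KRS1, for lysine, at 1.06. It was 0.72 over 13 elongation and termination factors, with the elongation factor eEF3, encoded by YEF3, at 1.59. It was 0.34 over 21 initiation factors outside eIF4F, led by TIF6, an anti-association factor of the large subunit, at 1.09. Without 4Gts replicate 1 these mRNA medians were 0.10 for the synthetases, 0.60 for the elongation factors and -0.04 for the initiation factors, and without WT replicate 2 they were 0.08, 0.35 and 0.08. Without 4Gts replicate 2 they were 0.99, 0.80 and 0.71, and without WT replicate 1 0.94, 1.08 and 0.59. TE medians of these 3 lists lay between -0.08 and 0.04. None of these genes passed the test in the fit of 1 mean per group. With the replicate number as a block, 3 of 20 synthetases passed as higher in mRNA, beside 272 of all 4689 genes. So did 5 of 13 elongation and termination factors and 1 of 21 initiation factors.

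**Figure D4:**
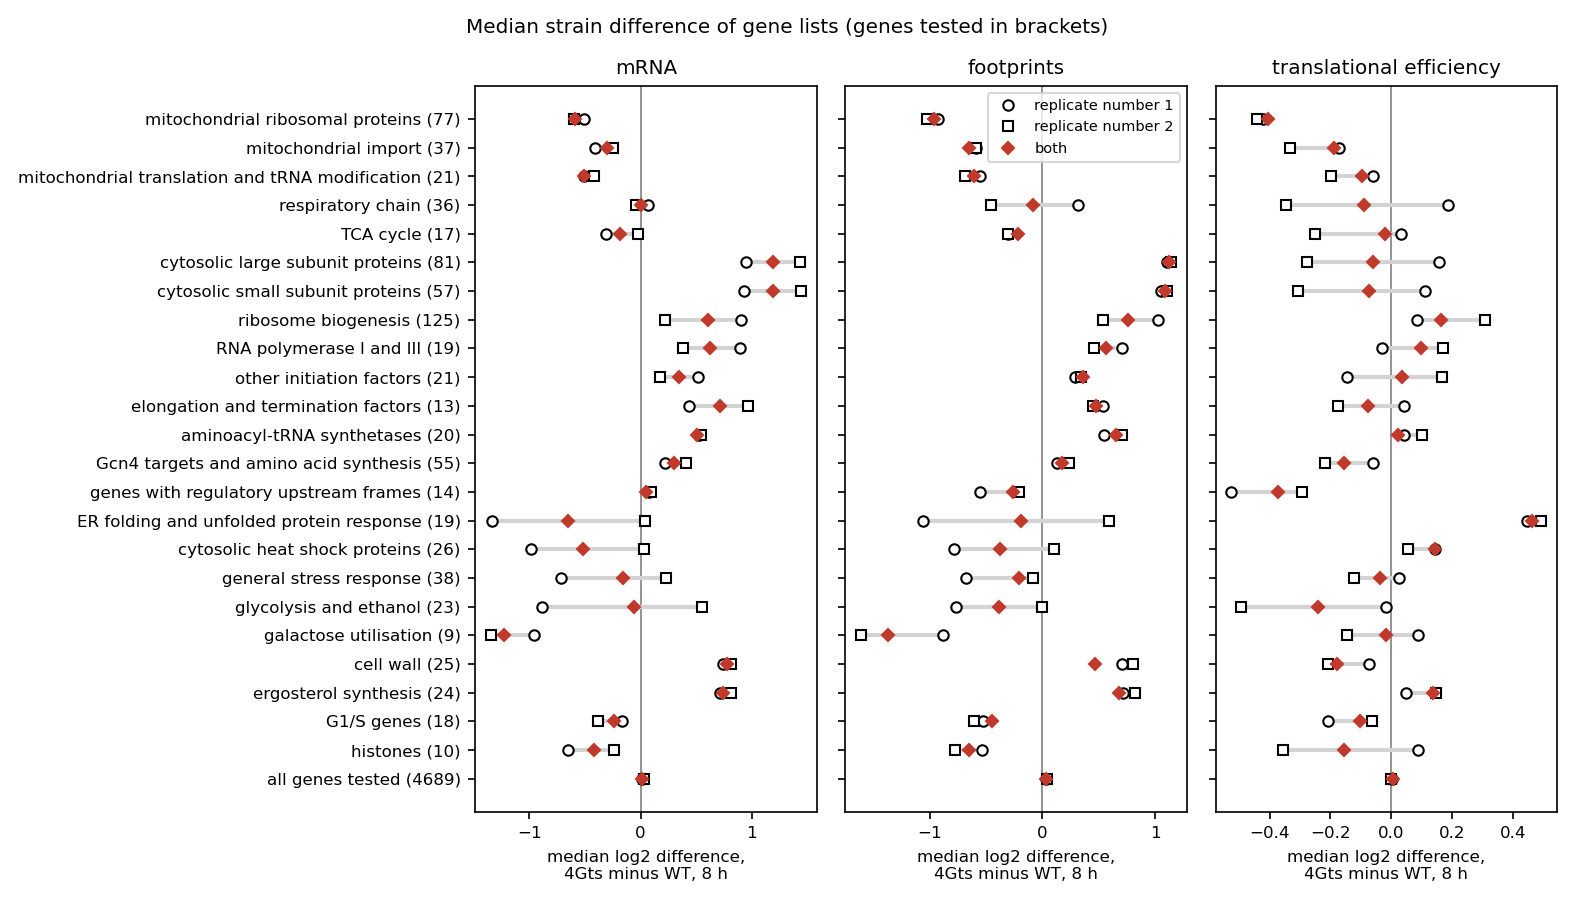
Median strain difference (log2, 4Gts minus WT, 8 h) of 23 gene lists and of all genes tested, in replicate number 1 (circles), number 2 (squares) and the mean of both (red diamonds), with the number of genes in brackets. The median of the mean differences can lie outside the medians of the numbers, as for cell wall footprints. Mitochondrial ribosomal genes are below 0 and cytosolic ribosomal genes above 0 in mRNA and footprints in both numbers, and ER folding genes are split between the numbers in mRNA and footprints but not in TE.

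ER folding genes gave a TE above 0 in both replicate numbers, on mRNA levels that differed between the numbers. This list holds HAC1 and the chaperones and oxidases of the endoplasmic reticulum. In TE, 16 of 19 genes were above 0 and 12 did not overlap in that direction, beside 21.8% of all genes tested, with a median of 0.46 (0.44 in number 1 and 0.49 in number 2). The median mRNA difference was -0.66, made of -1.33 in number 1 and 0.04 in number 2, and the footprint medians were -1.06 and 0.59. The list median of the mRNA level was 5.55 and 6.33 in the 4Gts cultures and 7.11 and 6.08 in WT, so WT replicate 1 was the highest and 4Gts replicate 1 the lowest. The median over both numbers was, in mRNA, -0.22 without 4Gts replicate 1, -0.25 without WT replicate 1 and -1.06 without WT replicate 2, and the footprint median turned to 0.13 without 4Gts replicate 1 and 0.19 without WT replicate 1. KAR2, the Hsp70 of the ER, had mRNA at 691 and 1890 RPKM in 4Gts and 3350 and 2220 RPKM in WT, a difference of -1.24 (-2.38 and -0.09 in the numbers 1 and 2). SIL1, its exchange factor, differed by -1.28 in mRNA. SEC63, a subunit of the translocon, had the highest TE difference of the list, 0.93 (limma adjusted p = 0.377), and HAC1 the lowest.

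Chaperones of the cytosol and enzymes of glycolysis also differed by replicate number. The median mRNA difference of 26 cytosolic heat shock genes was -0.51, at -0.99 in number 1 and 0.03 in number 2, and it was -1.05 without 4Gts replicate 2, 0.09 without 4Gts replicate 1 and -0.28 without WT replicate 2. SSA4 and HSP26, both induced by heat, differed by -1.98 and -1.94 in mRNA with overlapping groups (HSP26 levels of 10.02 and 13.56 in 4Gts and 12.95 and 14.50 in WT). For 23 genes of glycolysis and ethanol formation the mRNA median was -0.89 in number 1 and 0.55 in number 2, and the TE median was -0.24 (-0.02 and -0.50), or -0.42 without 4Gts replicate 1 and -0.09 without 4Gts replicate 2. HXK1, a hexokinase, differed by -1.48 in mRNA and -1.82 in footprints. Of 38 general stress genes the mRNA median was -0.72 in number 1 and 0.22 in number 2.

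Genes of ergosterol synthesis and most genes of the cell wall, the latter to a lesser degree in footprints, had list medians above 0 in both numbers. All 24 tested genes of ergosterol synthesis were above 0 in mRNA and in footprints, 17 and 14 of them without overlap, beside 18.7% and 17.1% of all genes tested, with medians of 0.74 and 0.68. The footprint median was 0.41 without WT replicate 2 and 0.42 without 4Gts replicate 1, and it was 1.02 without either of the other two. ERG5, the desaturase of the sterol side chain, had mRNA levels of 8.83 and 8.68 in 4Gts and 7.21 and 6.94 in WT and footprint levels of 7.23 and 7.05 in 4Gts and 5.19 and 4.79 in WT. The strains were clearly apart, and the differences were 1.69 in mRNA and 2.15 in footprints (SE 0.25 and 0.28, limma adjusted p = 0.282 and 0.163). ERG11, the lanosterol demethylase, differed by 1.85 in footprints and ERG25, a methyl oxidase, by 1.46 in mRNA. ERG2, the sterol isomerase, had a TE difference of 0.76.

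Of 25 cell wall genes 22 were above 0 in mRNA, with a median of 0.78, and 20 in footprints, with a median of 0.47 that was 0.91 without 4Gts replicate 2, 0.72 without 4Gts replicate 1 and 0.71 without WT replicate 1. CWP1, a mannoprotein of the wall, had mRNA levels of 5.75 and 5.20 in 4Gts and 3.50 and 3.31 in WT, a difference of 2.07 (SE 0.25, limma adjusted p = 0.162). TIR3, a related wall protein, differed by 1.87 in mRNA, and SLT2, the MAP kinase of cell wall integrity, by 1.76 in footprints (adjusted p = 0.307 and 0.163). CCW12, another wall mannoprotein, had a TE difference of -1.33, at -0.48 in number 1 and -2.19 in number 2.

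Single genes with other roles gave larger mRNA differences by value. PHO84, the high-affinity phosphate transporter, had mRNA at 355 and 96.2 RPKM in 4Gts and 30.9 and 12 RPKM in WT, a difference of 3.21 (SE 0.74, limma adjusted p = 0.307). PDR5, a multidrug exporter, had mRNA at 304 and 235 RPKM in 4Gts and 62 and 48.8 RPKM in WT, and footprints at 83.4 and 82.8 RPKM in 4Gts and 14.2 and 8.7 RPKM in WT. The groups did not overlap, and PDR5 differed by 2.27 in mRNA and 2.77 in footprints (adjusted p = 0.29 and 0.163). SFK1, a plasma membrane protein, differed by 2.60 in mRNA (adjusted p = 0.21), the hexose transporter HXT4 by 2.61, the iron oxidase FET3 by 1.35 and its partner, the iron permease FTR1, by 1.02. The lists of HXT4 and of the iron genes did not share that direction: 9 of 14 genes of hexose transport and glucose repression were below 0 in mRNA, with a median of -0.12, and 7 of 13 genes of the iron regulon. Of 13 genes of the phosphate regulon 8 were above 0, with a median of 0.34. ZPS1, which is induced in low zinc, had footprints at 84.6 and 94.8 RPKM in 4Gts and 6.96 and 14.1 RPKM in WT, a difference of 3.03, the highest in footprints among genes with a symbol. YJL107C, a frame with no symbol, differed by 2.17 in mRNA (adjusted p = 0.162) and by 2.28 in footprints (adjusted p = 0.0535), just short of the threshold.

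At the low end after TIF4632 stood MAN2 and DSF1, a near-identical pair of mannitol dehydrogenase genes that may share reads. MAN2 mRNA was at 5.86 and 26.6 RPKM in 4Gts and 97.3 and 285 RPKM in WT, a difference of -3.59, and its footprints differed by -4.42 (limma adjusted p = 0.307 and 0.163). DSF1 differed by -2.86 and -3.97 and RGI2, a protein of respiratory growth, by -2.55 and -3.00. ULI1, a gene induced by unfolded proteins, differed by -2.63 in mRNA, at -3.72 in number 1 and -1.55 in number 2. The galactose genes were lower by value: of 9 tested, all 9 were below 0 in mRNA, 7 in both numbers, with a median of -1.23 in mRNA and -1.37 in footprints. GAL1, the galactokinase, had mRNA at 591 and 104 RPKM in 4Gts and 1610 and 1420 RPKM in WT, a difference of -2.59 that was -1.55 in number 1 and -3.63 in number 2. GAL10, the epimerase, differed by -2.17. All 4 cultures had received galactose. Without 4Gts replicate 2 the footprint median of the list was -0.72.

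Genes of the cell cycle and of amino acid supply gave smaller differences. Of 18 G1/S genes 15 were below 0 in footprints, with a median of -0.45, and the cyclins CLN1 and PCL1 differed by -1.32 and -1.25 in mRNA. Of 10 histone genes 9 were below 0 in footprints, with a median of -0.65 (-0.36 without WT replicate 2), and HTA2, a histone H2A gene, differed by -0.98 in mRNA. Of 55 genes of amino acid synthesis under Gcn4, 47 were above 0 in mRNA, with a median of 0.30, and 42 below 0 in TE, with a median of -0.15. That mRNA median was 0.06 without WT replicate 2, 0.18 without 4Gts replicate 1, 0.62 without WT replicate 1 and 0.53 without 4Gts replicate 2, and the TE median was -0.10 without 4Gts replicate 2. HIS3, of histidine synthesis, differed by 1.06 in mRNA. Of 18 genes of sulfate and methionine 14 were below 0 in TE, with a median of -0.25, and SAM1, a methionine adenosyltransferase, differed by 1.90 in mRNA.

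By gene class the TE differences were small and depended on the replicate number. In 5 equal bins by coding length, the median TE difference ran from -0.07 in the shortest bin (78 to 654 nt) to 0.08 in the longest (2049 to 14730 nt). In number 1 those bins were at 0.07 and -0.06 and in number 2 at -0.21 and 0.23, so the order turned around. In 5 bins by mRNA level the median went from 0.15 in the lowest to -0.09 in the highest, with 0.10 and -0.01 in number 1 and 0.21 and -0.23 in number 2. TE and the mRNA level share the mRNA values, and the part of that in this order was not tested. The SD of log2 TE over genes was 1.41 and 1.30 in the 4Gts cultures and 1.31 and 1.26 in WT.

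The strain difference at 8 h resembled that at 2 h of the same temperature shift, measured in 8 further libraries of the same medium and strains. Across genes the differences at the 2 times correlated at r = 0.904 in mRNA, 0.947 in footprints and 0.728 in TE. The deviation of replicate 1 from replicate 2 also recurred between the times within a strain. It correlated at r = 0.929 in mRNA and 0.961 in footprints in WT, and at 0.768 and 0.878 in 4Gts. The likeness of the 2 times is therefore not independent agreement. The SD of the differences was smaller at 8 h than at 2 h, 0.57 against 0.73 in mRNA, 0.61 against 0.78 in footprints and 0.35 against 0.46 in TE. At 2 h the same fit called 19 genes higher and 14 lower in mRNA (0.405% and 0.299%), 14 higher and 48 lower in footprints (0.299% and 1.02%) and 8 lower in TE (0.171%). The difference between the times was tested itself, and no gene passed in mRNA, footprints or TE (0%). At an unadjusted p under 0.05 there were 16, 5 and 90 genes, with lowest adjusted p-values of 1, 1 and 0.0793 (limma). That fit treats the samples at 2 h and 8 h as independent. With strain and replicate number as a random group there were 387, 289 and 275 such genes, with lowest adjusted p-values of 0.112, 0.575 and 0.0103, and 1 frame with no symbol, YPR108W-A, passed in TE.

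Of 34 lists with at least 8 tested genes, the median had the same sign at 8 h as at 2 h in 32 in mRNA, in 34 in footprints and in 27 in TE. The median was nearer to 0 at 8 h in 24, 30 and 26 of them. The footprint median of the mitochondrial ribosome was -1.25 at 2 h and -0.97 at 8 h, and that of the large cytosolic subunit 1.45 and 1.12. The TE median of the ER folding genes was 0.49 at 2 h and 0.46 at 8 h, while their mRNA median was -1.34 and -0.66. CLN3 and PCL5, which passed in TE at 2 h with differences of -2.39 and -2.31 (adjusted p = 0.0473 for each), were at -1.93 and -1.77 at 8 h, and the changes of 0.46 and 0.53 did not pass (adjusted p = 0.999). HAC1 went from -2.88 to -1.63 and GCN4 from -2.41 to -1.30 in TE (adjusted p of the change 0.999 for both).

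**Figure D5:**
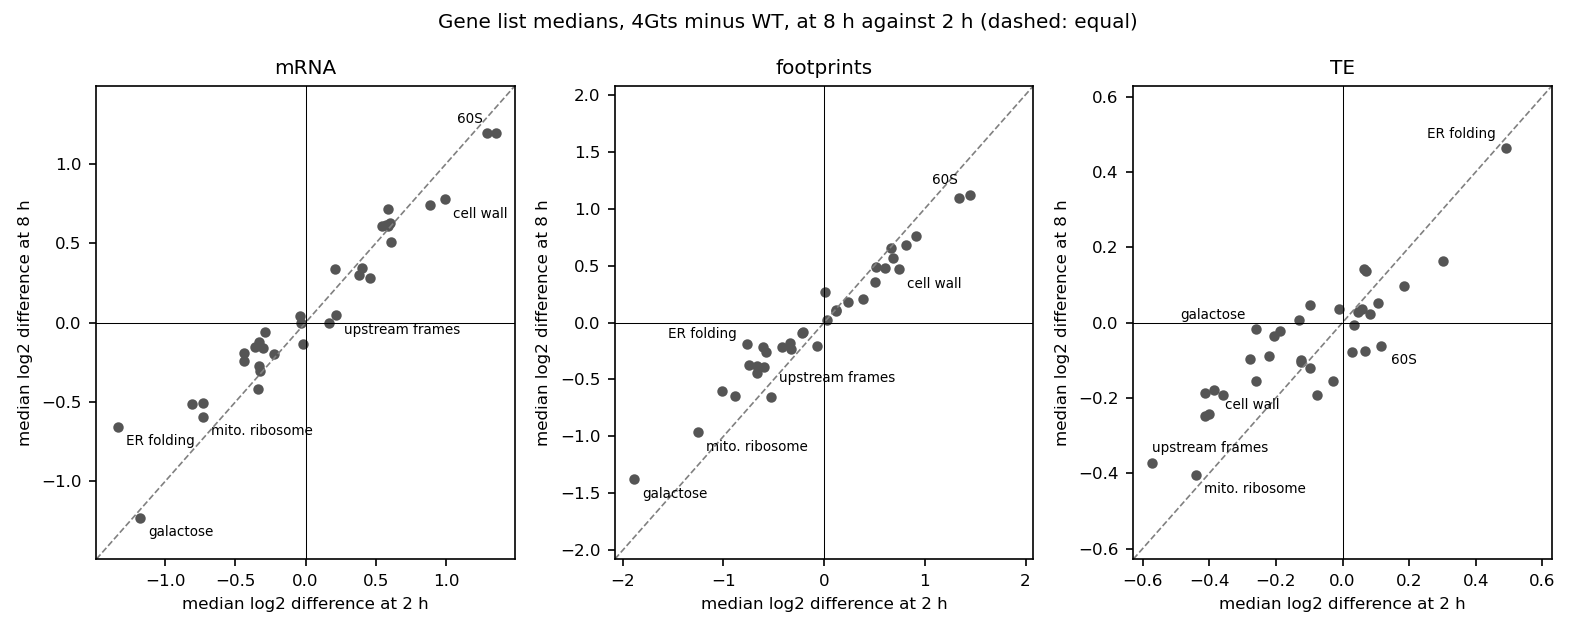
Median strain difference of each of 34 gene lists (log2, 4Gts minus WT) at 2 h (x axis) against 8 h (y axis), with a dashed line where both are equal and 6 lists named. Most footprint medians lie on the same side of 0 at both times and nearer to 0 at 8 h (30 of 34).

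Among single genes the largest changes with time by value were in different layers. URA3 mRNA differed by 4.04 at 2 h and 2.36 at 8 h. AVT1 and VBA1, vacuolar amino acid transporters, had TE differences of -0.69 and -1.12 at 2 h and 0.74 and 0.42 at 8 h, beside mRNA differences of 1.45 and 1.42 at 2 h and -0.30 and -0.19 at 8 h. YKE2, a subunit of prefoldin, had a TE difference of 1.68 at 2 h and 0.71 at 8 h. None of these changes passed the test (limma adjusted p of 0.999 or above).

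In YPA, the other medium of the series, at 36 °C for 2 h, where each strain had a single culture and nothing can be tested, the footprint median was -1.65 for the mitochondrial ribosome and 0.60 for the large cytosolic subunit. Medium and time both differ from the cultures at 8 h in SC, so these values stand side by side only.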

How the data were processed

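Libraries were grouped by title, with strain and treatment from the labels. The authors deposited RPKM per gene for footprints and for mRNA, per the file headers, and for each culture the ratio of the footprint value to the mRNA value, which matched the RPKM tables. The submitters' processing notes name TopHat, sacCer3 and DESeq with no role; the sources used here do not give the counting rule or strand use. Ratio columns headed 4Gd were matched to titles with 4Gts. No per-sample column lacked a sample.

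Each library was scaled by its median ratio to the geometric mean of its table. Tests ran on log2(RPKM + 1), so fold changes of low genes are understated, over the 4689 of 6692 genes that averaged 10 RPKM or more in the SC footprint table and in the SC mRNA table. limma 3.58.1 in R 4.3.3 fitted 4 groups (strain by time) to the 8 SC cultures without a replicate block, and p-values were adjusted by Benjamini-Hochberg over all genes tested, with a threshold of 0.05. The fit was tested on simulated data with noise independent between cultures. That check does not cover deviations shared by same-numbered cultures. Reads were recovered from the RPKM steps only to give depth. RefSeq held 6008 of the genes by locus tag, and gene symbols, where given, came from there.

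The comparison, genes and lists were chosen with earlier results of these data known. Named genes were a preset list, the largest differences per direction among genes with non-overlapping groups, 2 or more members of each list by size, and the largest changes with time. TIM23, MTO1 and others of their lists were named by the list rule, and no list was tested as a set. Alternatives covered pseudocount, filter, scaling, samples in the fit, replicate block and leaving out each culture. The deposited YPA ratio table was not used.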

Additional observations from a re-analysis of the deposited data

How the results depend on the processing

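TIF4632 passed in mRNA and footprints with pseudocounts of 0.1 and 5 RPKM, without a filter and with each scaling. No gene passed in either when only the 8 h cultures were fitted (0 in mRNA, lowest adjusted p = 0.0969, and 0 in footprints, 0.161) or when the filter was raised to a mean of 50 RPKM (0 and 0), which leaves TIF4632 untested. Without scaling, and with a mean-variance trend, 2 genes passed in footprints, TIF4632 and YJL107C (higher). Leaving out 1 culture gave 0 to 1 calls in TE (YBR191W-A without 4Gts 8 h replicate 1), 1 to 2 in mRNA (ULI1 without 4Gts 8 h replicate 2), 0 to 1 in footprints, 0 to 1 in the TE change with time and 0 to 0 in the other changes; where 1 sample of a group was left, it was assumed to vary like the other groups. The TE change gave 1 call, YPR108W-A, without scaling, with quantile normalization, with the authors' ratios and with strain and number as a random group. With the replicate number as a block the fit called 3 genes lower in TE (CLN3, UTH1 and CTS1), 387 in mRNA (272 higher and 115 lower), 853 in footprints (478 higher and 375 lower) and 1 in the TE change, with no call in the other changes. In footprints that block called 68 of 77 mitochondrial ribosomal genes lower, beside 375 of all 4689 genes tested. It called 78 of 81 large-subunit genes higher, beside 478 of all 4689. Other lists had footprint calls too, with 59 of 125 biogenesis and 14 of 24 ergosterol genes higher and 20 of 37 import genes lower. Same-numbered cultures of the strains deviated together at 8 h (r = 0.341 in TE, 0.692 in mRNA and 0.715 in footprints over genes), but the labels do not say what a number shares, so this is a hint from the data and not from the design. TE medians of the cytosolic large subunit ranged from -0.08 to 0.07 over the scalings and filters. The oligo-T description and its alternatives were not run, as no sequences were used here. At 10 RPKM counting error alone reaches 11.9% in footprints.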

Other observations

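Purine synthesis was a further group with values mostly on the same side of 0. None of its 17 genes tested passed in limma with Benjamini-Hochberg adjustment in the fit of 1 mean per group. With the replicate number as a block, 3 of the 17 passed as higher in mRNA, beside 272 of all 4689 genes. The median mRNA difference was 0.62 on the log2 scale (0.62 and 0.56 in the numbers 1 and 2), with 15 of 17 genes above 0. That median was 0.13 without 4Gts replicate 1, 0.20 without WT replicate 2 and 1.03 without WT replicate 1. The median TE difference was -0.19, with 14 of 17 genes below 0, and it was -0.10 to -0.26 when 1 culture was left out.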
